A study of Mus musculus with 6 samples.

Results

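The genes described here are 9 transcription factors of the skeletal muscle programme, taken by name from the 47729 genes in the deposited tables of brown adipose tissue (BAT). They are the myogenic regulatory factors (MRFs) *Myod1*, *Myog*, *Myf5* and *Myf6*, the paired-box genes *Pax3* and *Pax7*, and the myocyte enhancer factor 2 genes *Mef2a*, *Mef2c* and *Mef2d*. BAT came from wild type male C57BL/6J mice that were fed from 6 to 10 weeks of age with either a low-fat diet (LFD, a standard rodent diet, 3 mice) or a high-fat diet (HFD, labelled as 45% fat, 3 mice). Each sample was the right interscapular pad of a single mouse, and the 3 mice of a diet were picked to span its range of fat mass. Which replicate number stands for which fat mass is not given in the sources used here. Libraries were made from total RNA without ribosomal RNA and read from 1 end over 75 bases.

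MRFs are basic helix-loop-helix proteins that pair with E proteins and bind DNA motifs called E-boxes. *Myf5* and *Myod1* commit precursor cells to the muscle lineage, *Myog* drives their fusion and differentiation into fibres, and *Myf6* (MRF4) is the MRF that adult fibres keep expressing. *Pax7* marks satellite cells, the stem cells of adult muscle, and *Pax3* marks muscle precursors of the embryo. MEF2 proteins work with MRFs at muscle promoters, but are also present in many other cell types. Brown adipocytes of the interscapular pad descend in large part from precursors that once expressed *Myf5*, and the mature cells are not known for MRF expression.

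The authors' tables give expected counts, in which a read with several matches is split by likelihood, and TPM, a level corrected for transcript length and library total. Rounded counts totalled 17156991 to 21603487 per mouse. Mitochondrially encoded genes took 8.50% to 22.7% of the counts in HFD-fed and 3.87% to 13.8% in LFD-fed mice, with the largest share in replicate 1 of each diet, and the TMM normalization factors were lowest in these same mice (0.815 and 0.745, against 1.06 to 1.21 in the others). The brown adipocyte marker *Ucp1*, the uncoupling protein, was present in every mouse, with 2728, 4021 and 796 TPM in HFD replicates 1 to 3 and 443, 11.03 and 76.0 TPM in LFD replicates 1 to 3. LFD replicate 2, which had the least *Ucp1*, also had the most reads of 8 of the 9 genes described here, all but *Mef2a*, so values without it are given beside the main results.

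A set of 20 skeletal muscle fibre markers was used to show how much muscle RNA each sample held. Their summed level was 6446, 15764 and 2264 TPM in LFD replicates 1 to 3, against 141, 403 and 25.9 TPM in HFD replicates 1 to 3. The lowest LFD-fed mouse thus had 5.62 times the sum of the highest HFD-fed mouse. All 20 markers were detected in every LFD-fed mouse, with at least 30 counts each, and 1 of the 20 was at 0 counts in HFD replicates 2 and 3. In bulk tissue, fewer cells of a type and less RNA per cell cannot be told apart. The study selected 16 of the 20 as different on these same mice, so their direction is not independent evidence. What part muscle RNA had in the differences of the 9 genes was not tested.

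For 6 of the 9 genes the RefSeq table (GRCm38.p6) held a promoter. *Myod1*, *Myf6* and *Pax3* had no entry. The 250 bases before each start were searched for the E-box CANNTG, which reads the same on both strands, and for the core of a MEF2 site, TANNNNTA with only A or T at the 4 middle letters, which AT-rich TATA boxes also meet. An E-box was found at 66.2% and a MEF2 core at 8.56% of all 32851 starts in the table. *Myog* and the first of 3 *Mef2c* starts each held 2 E-boxes and 1 MEF2 core, and the third *Mef2c* start held 1 E-box. The *Myog* promoter and that of the first *Mef2c* start are shown because *Myog* had the largest ratio between the highest and the lowest LFD-fed mouse in TPM and *Mef2c* had the largest difference between the diets among the MEF2 genes. Capitals mark the E-boxes and the MEF2 cores, and both sequences are written 5′ to 3′ on the plus strand, chr1:134289754-134290003 for *Myog* and chr13:83503784-83504033 for *Mef2c*.
Myog: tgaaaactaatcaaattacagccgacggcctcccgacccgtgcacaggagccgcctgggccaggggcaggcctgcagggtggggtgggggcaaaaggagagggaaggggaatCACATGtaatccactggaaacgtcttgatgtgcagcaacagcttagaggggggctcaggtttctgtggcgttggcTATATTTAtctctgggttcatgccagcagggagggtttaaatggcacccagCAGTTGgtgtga
Mef2c: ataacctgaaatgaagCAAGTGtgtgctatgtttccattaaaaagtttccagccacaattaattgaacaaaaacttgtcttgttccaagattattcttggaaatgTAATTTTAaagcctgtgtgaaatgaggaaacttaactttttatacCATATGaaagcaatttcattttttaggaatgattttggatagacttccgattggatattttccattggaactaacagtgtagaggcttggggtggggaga
In *Myog*, the MEF2 core TATATTTA begins 63 bases before the RefSeq start and the nearest E-box, CAGTTG, 12 bases before it. The promoters of *Mef2a*, *Mef2d*, *Myf5* and *Pax7* in the table held no E-box and no MEF2 core in this window. Across the 23 starts of 20 genes known as MRF and MEF2 targets, 91.3% held an E-box and 17.4% a MEF2 core. A match of letters is not evidence of binding.

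**Figure D1:**
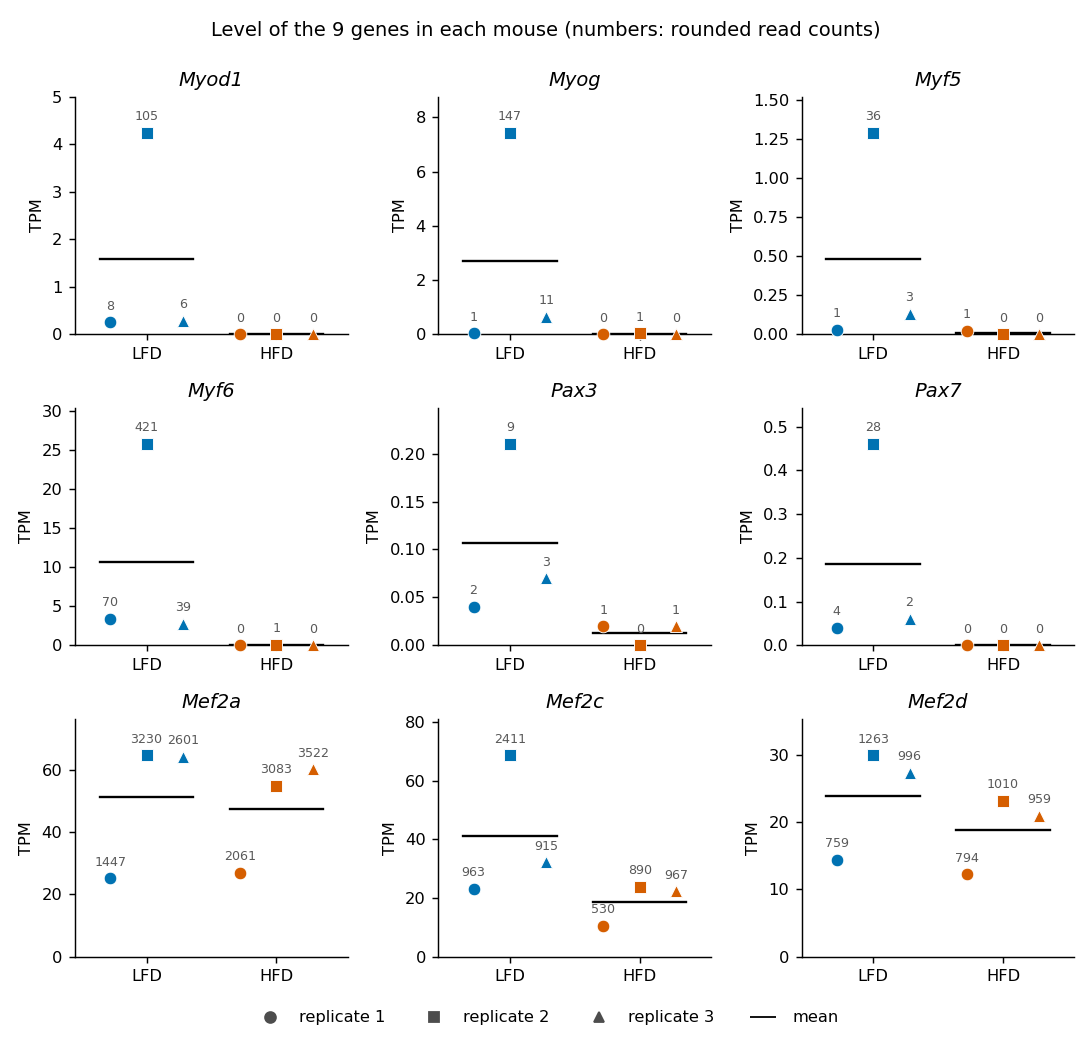
Level in TPM (vertical axes, 1 scale per gene) of the 9 genes in the 3 LFD-fed (blue) and 3 HFD-fed (orange) mice, with replicate numbers as symbols, rounded read counts printed above the points and the mean as a line. The 6 MRF and Pax genes lay at 0 to 1 count in each HFD-fed mouse and were highest in LFD replicate 2, while the 3 Mef2 genes were present in all 6 mice.

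*Myf6* was the most abundant MRF. It had 3.36, 25.8 and 2.78 TPM in LFD replicates 1, 2 and 3 and 0, 0.05 and 0 TPM in HFD replicates 1, 2 and 3. These values rested on 70, 421 and 39 reads in the LFD-fed mice and on a single read among the HFD-fed mice. Every LFD-fed mouse lay above every HFD-fed mouse. The 95% credible intervals of RSEM for the posterior mean were 2.55 to 4.09, 22.7 to 27.5 and 1.91 to 3.60 TPM in LFD replicates 1 to 3. The interval of LFD replicate 2 did not reach those of the other LFD-fed mice.

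The fitted log2 fold change of *Myf6*, HFD over LFD, was -8.62 (standard error 1.43). Its adjusted p = 0.170 came from the quasi-likelihood test of edgeR with Benjamini-Hochberg adjustment over 17668 genes. The fold change was the most negative among all genes tested, but *Myf6* passed the filter on low counts only through the LFD-fed mice. Such a fit against 1 read also depends on the small count that edgeR adds, so the rank is a description only. As summed counts over summed library sizes, the LFD level was 574 times the HFD level, with an exact 95% counting interval of 102.5 to 22700. Without LFD replicate 2 this ratio was 187 (32.8 to 7437), and the fitted log2 fold change was -7.15 (edgeR adjusted p = 0.412). Such intervals cover counting error only, not the spread between mice.

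Calls follow the study's limits, with adjusted p below 0.01 and a log2 fold change beyond 1.5 in either direction. The study set these limits on a DESeq2 fit, while the main fit here is that of edgeR. By edgeR, 0 of the 4 members tested were called, and 0% of all 17668 genes. At an unadjusted p under 0.05 were 1851 genes, 6.62% of those tested lower and 3.86% higher in HFD-fed mice, and of the 4 members *Myf6* and *Mef2c* were among the lower ones. Same-numbered mice of the diets deviated together, and with the replicate number as a block 3094 genes had an unadjusted p under 0.05, 8.76% of those tested lower. In that paired fit the value of *Myf6* was -8.62 with a standard error of 0.53, and its edgeR adjusted p = 0.0117 was still above the limit. DESeq2 with default settings called 3 of the 9 members (*Myf6*, *Myod1* and *Myog*, adjusted p = 6.59e-07, 0.000634 and 0.00551) and 2.06% of the 19965 genes to which it gave an adjusted p. *Myf6* is also the only one of the 9 that the study selected as different on these same mice, so its direction is not independent evidence.

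*Myod1*, *Myog* and *Myf5* were left out of the edgeR test by its filter on low counts. *Myod1* had 0.25, 4.24 and 0.28 TPM in LFD replicates 1 to 3 (8, 105 and 6 reads) and 0 reads in each HFD-fed mouse. A count of 0 allows up to 3 reads, which for this gene is 0.0769 to 0.105 TPM in an HFD-fed mouse. With 3 reads over the whole HFD group taken as the floor, *Myod1* in LFD-fed mice was at 42.9 times that floor, and at 7.99 times it without LFD replicate 2. This ratio leaves out the counting error of the LFD reads, so it is no strict lower bound.

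*Myog* had 0.04, 7.43 and 0.65 TPM in LFD replicates 1 to 3, from 1, 147 and 11 reads. In HFD replicates 1 to 3 it had 0, 0.04 and 0 TPM, with 1 read in all. LFD replicate 1 was thus at the level of an HFD-fed mouse in this gene. The LFD level was 172 times the HFD level over the summed counts (exact 95% counting interval 30.4 to 6841), and 20.5 times without LFD replicate 2 (3.04 to 878).

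*Myf5* had 1, 36 and 3 reads in LFD replicates 1 to 3 (0.03, 1.29 and 0.13 TPM) and 1, 0 and 0 reads in HFD replicates 1 to 3. Here too LFD replicate 1 matched an HFD-fed mouse in reads. The ratio of summed counts was 43.3 (7.34 to 1753), and 6.85 without LFD replicate 2, where the interval of 0.678 to 337 includes no difference. *Myf5* and *Myf6* are neighbours on chromosome 10 (GRCm38, minus strand, 107482908 to 107486134 and 107492853 to 107494737 in GENCODE M21), with 6718 bases between them. Across the 3 LFD-fed mice the level of *Myf6* in TPM was far above that of its neighbour, with 421 reads against 36 in the mouse that had most of both.

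*Pax7* (chromosome 4, 139737062 to 139833528) had 4, 28 and 2 reads in LFD replicates 1 to 3, which is 0.04, 0.46 and 0.06 TPM, and 0 reads in every HFD-fed mouse. Against the floor of 3 reads over the HFD group, *Pax7* in LFD-fed mice was at 12.3 times that floor. Without LFD replicate 2 it was at 3.42 times the floor, which rests on 6 reads. The counting error of the LFD reads is again left out. *Pax3* (chromosome 1, 78101267 to 78197134) had 2, 9 and 3 reads in LFD replicates 1 to 3 and 1, 0 and 1 reads in HFD replicates 1 to 3. No mouse had more than 0.21 TPM of *Pax3*. Its ratio of summed counts was 7.58 (exact 95% counting interval 1.74 to 68.7), and 4.28 without LFD replicate 2 (0.701 to 44.9), so a difference in *Pax3* was not detectable without that mouse.

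On the CPM scale (counts relative to the TMM-scaled library size), all HFD-fed mice lay below all LFD-fed mice in 8 of the 9 members, *Mef2a* being the exception, as they did in 7.18% of the 29856 genes with a count. For *Myog*, *Myf5* and *Pax3* this order rests on 1 read against 1 or 2 reads in LFD replicate 1. Among the 4 members tested, *Myf6*, *Mef2c* and *Mef2d* were lower in all HFD-fed mice in log2 CPM, against 9.23% of the genes tested, and none was higher in all of them, against 6.72%. By the fitted sign alone, 3 of these 4 were lower, as were 54.4% of the genes tested. *Myf6* passed the filter only through the LFD-fed mice. In log2(TPM + 1) the diets overlapped in *Mef2c* and *Mef2d*, and *Myf6* alone stayed apart. An exact two-sided permutation test of 3 mice against 3 cannot go below p = 0.1.

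**Figure D2:**
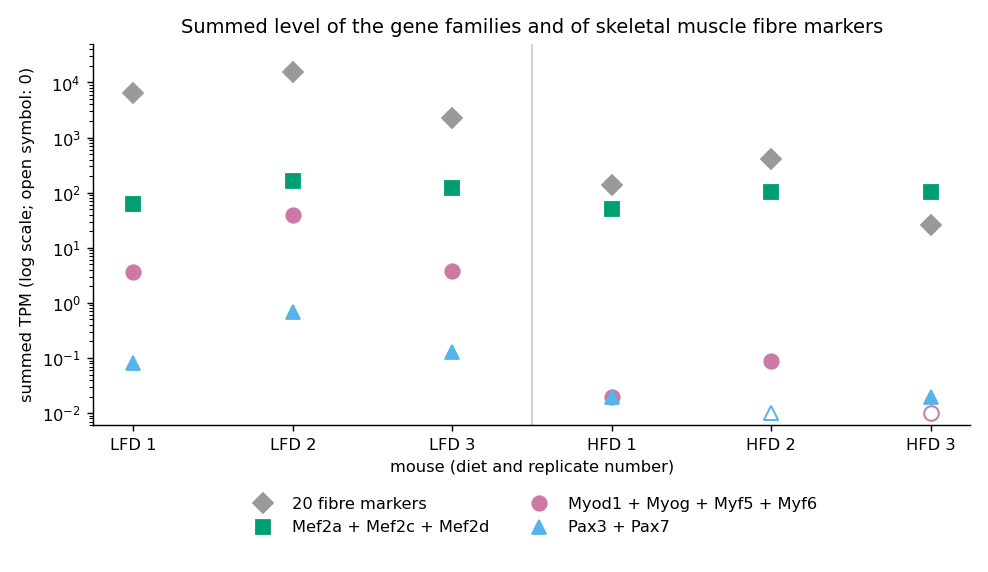
Summed TPM (vertical axis, log scale) of 20 skeletal muscle fibre markers, the 3 Mef2 genes, the 4 MRFs and the 2 Pax genes in each of the 6 mice (horizontal axis), with open symbols at the bottom for a sum of 0. The sums of the fibre markers and of the MRFs were higher in each LFD-fed than in each HFD-fed mouse, while the Mef2 sums overlapped between the diets.

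The summed MRF level was 3.68, 38.7 and 3.84 TPM in LFD replicates 1 to 3. *Myf6* made up 91.3%, 66.5% and 72.4% of it, *Myod1* 6.79%, 10.9% and 7.29%, and *Myf5* at most 3.38%. *Myog* made up 1.09% in LFD replicate 1, against 19.2% and 16.9% in LFD replicates 2 and 3. The MRF of adult fibres was thus the leading one in each LFD-fed mouse, and *Myog* held a smaller share in LFD replicate 1 than in the others.

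Set against the fibre markers, the MRFs were not at a constant ratio among the LFD-fed mice. *Myf6* had 0.521, 1.63 and 1.23 TPM per 1000 TPM of fibre markers in LFD replicates 1, 2 and 3 (exact 95% Poisson intervals of its reads 0.406 to 0.658, 1.48 to 1.80 and 0.873 to 1.68). The interval of LFD replicate 1 did not reach those of the other LFD-fed mice. *Myog* had 0.00615, 0.472 and 0.286 TPM per 1000 (0.000156 to 0.0343, 0.398 to 0.554 and 0.143 to 0.512), so LFD replicate 1, with a higher fibre marker sum than LFD replicate 3, had the lower *Myog* by read count and by ratio. *Myod1* had 0.0393, 0.269 and 0.125 TPM per 1000 (0.0170 to 0.0774, 0.220 to 0.325 and 0.0457 to 0.271), and *Pax7* 0.00604, 0.0290 and 0.0244 (0.00165 to 0.0155, 0.0192 to 0.0418 and 0.00295 to 0.0881). In the latter, the interval of LFD replicate 3 includes the values of both other mice.

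In the HFD-fed mice the same ratio could hardly be measured. The 1 read of *Myf6* in HFD replicate 2 gave 0.132 TPM per 1000 TPM of fibre markers, with an interval of 0.00334 to 0.736 that includes the value of LFD replicate 1 but not those of LFD replicates 2 and 3. The 0 reads of HFD replicate 1 allow up to 0.829, again above LFD replicate 1 but below LFD replicates 2 and 3. Those of HFD replicate 3 allow up to 5.69. For *Myf6* each HFD value lay below each LFD value, but each HFD interval included the value of LFD replicate 1. Single reads of other members put some HFD values above LFD values. *Pax3* had 0.108 and 0.697 in HFD replicates 1 and 3, against at most 0.0369 in an LFD-fed mouse. *Myf5* had 0.162 in HFD replicate 1, against at most 0.0817 under LFD. *Myog* had 0.109 in HFD replicate 2, above LFD replicate 1 only. *Myod1* and *Pax7* had 0 reads in each HFD-fed mouse. The HFD values of *Myf6* rest on 1 read in all, and the ratio was taken mouse by mouse only. A difference between the diets in *Myf6* per unit of fibre RNA was not tested.

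**Figure D3:**
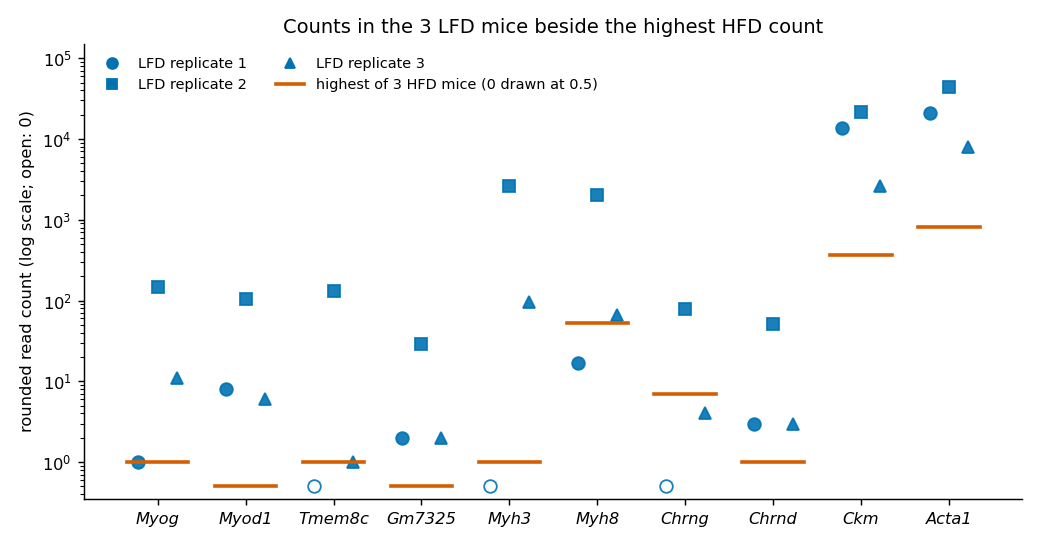
Rounded read counts (vertical axis, log scale, 0 drawn at 0.5, with open symbols for LFD-fed mice) of *Myog*, *Myod1* and 8 of their known targets in the 3 LFD-fed mice (blue symbols by replicate), with the highest of the 3 HFD-fed mice as an orange line. *Myog*, *Tmem8c*, *Myh3*, *Chrng* and *Chrnd* were far higher in LFD replicate 2 than in either other LFD-fed mouse, while *Ckm* and *Acta1* were high in all 3.

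Genes known as targets of MRFs and MEF2 had mostly negative log2 fold changes. Of 28 names in the list, which holds both older and newer symbols of 2 genes, 20 were tested and 19 had a negative log2 fold change, with a median of -5.09 against -0.05 over all genes tested. Some of them passed the filter on low counts only through the LFD-fed mice, so the filter favoured a negative value. *Mstn*, for example, had 58, 80 and 9 reads in LFD replicates 1 to 3 and 2, 2 and 0 in HFD replicates 1 to 3. With at least 10 counts in every mouse, 12 of 13 had a negative value and the median was -4.445. At an unadjusted p under 0.05, 17 of the 20 were lower and 1 was higher, where 6.62% and 3.86% of all genes were. None passed the thresholds. The largest differences were those of *Ckm*, the muscle creatine kinase, with -6.50 (standard error 1.74), the fast myosin light chain *Mylpf* with -6.46 (1.196), the muscle protein gene *Smpx* with -6.42 (1.11) and fast troponin T, *Tnnt3*, with -6.31 (1.58), with edgeR adjusted p from 0.170 to 0.265. The gene with a positive value was the cell cycle inhibitor *Cdkn1a*, with 0.80 (edgeR adjusted p = 0.462). The study selected 15 genes of this list as different on the same mice, and *Acta1*, *Ckm*, *Mb*, *Myl1*, *Mylpf*, *Tnni2* and *Tnnt3* stand in the fibre marker list as well.

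Some genes of that list were, like *Myog*, at very low counts in LFD replicate 1 and highest in LFD replicate 2. The 5 described next were picked out after their values were seen, and are no list of their own. *Tmem8c*, which encodes the fusion protein myomaker, had 0, 130 and 1 reads in LFD replicates 1, 2 and 3, and *Gm7325*, which encodes its partner myomixer, had 2, 29 and 2 reads. The embryonic myosin heavy chain *Myh3* had 0, 2609 and 95 reads in the same mice and 1 read among the HFD-fed mice. The perinatal myosin heavy chain *Myh8* had 17, 2046 and 66 reads, against 12, 52 and 35 in HFD replicates 1 to 3. *Chrng*, the fetal subunit of the acetylcholine receptor, had 0, 79 and 4 reads, and 6, 7 and 4 reads in HFD replicates 1 to 3. In LFD replicate 1 these 5 genes were at or below the HFD level or within 2 reads of it, while *Acta1*, skeletal muscle actin, had 21048, 44177 and 7889 reads in LFD replicates 1 to 3. Other genes of muscle formation were mixed in LFD replicate 1. *Chrnd* had 3, 51 and 3 reads in LFD replicates 1 to 3 and 0, 1 and 0 reads in HFD replicates 1 to 3. *Chrna1* had 22, 264 and 50 reads in LFD replicates 1 to 3 and 11, 11 and 31 reads in HFD replicates 1 to 3. *Cdh15* and *Musk* had more reads in LFD replicate 1 than in any HFD-fed mouse. *Cdh15*, the cell adhesion protein M-cadherin, had 28, 102 and 15 reads in LFD replicates 1 to 3 and 0, 4 and 3 reads in HFD replicates 1 to 3. *Musk*, the receptor kinase of the neuromuscular junction, had 42, 190 and 40 reads in LFD replicates 1 to 3 and 3, 11 and 6 reads in HFD replicates 1 to 3.

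The partners and inhibitors of the MRFs were split between the directions. All 13 genes of the list of E proteins, Id proteins and other helix-loop-helix repressors were tested, and 7 had a negative and 6 a positive value, with a median log2 fold change of -0.04, which ran from -0.30 without LFD replicate 1 to 0.08 without LFD replicate 3. The E proteins *Tcf3*, *Tcf4* and *Tcf12*, which pair with MRFs, had -0.07, -0.11 and 0.02. *Id2*, an inhibitor that sequesters E proteins, had 1.09 (standard error 0.32, edgeR adjusted p = 0.315), with 12.5, 28.6 and 29.1 TPM in HFD replicates 1 to 3 and 5.75, 12.2 and 22.4 TPM in LFD replicates 1 to 3. The repressors *Msc* and *Twist2* had -1.51 (edgeR adjusted p = 0.418) and -1.45 (edgeR adjusted p = 0.409), and *Bhlhe41* had -1.03 (edgeR adjusted p = 0.394).

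Of 29 cofactors and upstream regulators of myogenesis, 24 were tested, 19 of them with a negative and 5 with a positive value, and with a median of -0.65, where 54.4% of all genes tested had a negative value. With at least 10 counts in every mouse the median of 20 cofactors was -0.41. At an unadjusted p under 0.05, 6 were lower and 1 was higher, where 6.62% and 3.86% of all genes were. Among the largest values were those of the RNA-binding protein gene *Rbm24* with -5.77, the TEAD cofactor *Vgll2* with -4.98 and the methyltransferase gene *Smyd1* with -4.56, with edgeR adjusted p from 0.173 to 0.221. *Rbm24* had 1, 10 and 1 and *Vgll2* 0, 3 and 0 reads in HFD replicates 1 to 3. *Tead1* had -1.77 (edgeR adjusted p = 0.170), with 640, 496 and 674 reads in HFD replicates 1 to 3 and 1601, 2633 and 1553 in LFD replicates 1 to 3. *Srf* and *Hdac5* had 0.03 and -0.07. The homeobox gene *Meox1* had 1.64 (edgeR adjusted p = 0.226). The study selected 5 genes of this list on the same mice.

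Of 14 satellite cell genes, 10 were tested, with 5 negative and 5 positive values and a median log2 fold change of -0.12. The split depended on the filter on low counts. With no filter 8 of 13 had a negative value and the median was -0.83, and with at least 10 counts in every mouse 3 of 8 did and the median was 0.13. The median ranged from -0.38 without LFD replicate 1 to -0.02 without LFD replicate 3. *Cdh15* (M-cadherin) had -4.40 and the EGF-domain receptor *Megf10* -1.45 (edgeR adjusted p = 0.211 and 0.583). *Itga7*, a laminin receptor subunit, had -1.22 (edgeR adjusted p = 0.494) and the proteoglycan *Sdc4* had 1.02 (edgeR adjusted p = 0.282). *Sdc4* and several others of the list are also present in non-muscle cells. *Calcr*, the calcitonin receptor of quiescent satellite cells, was not tested, and had 2, 12 and 3 reads in LFD replicates 1 to 3 and 0 reads in each HFD-fed mouse.

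**Figure D4:**
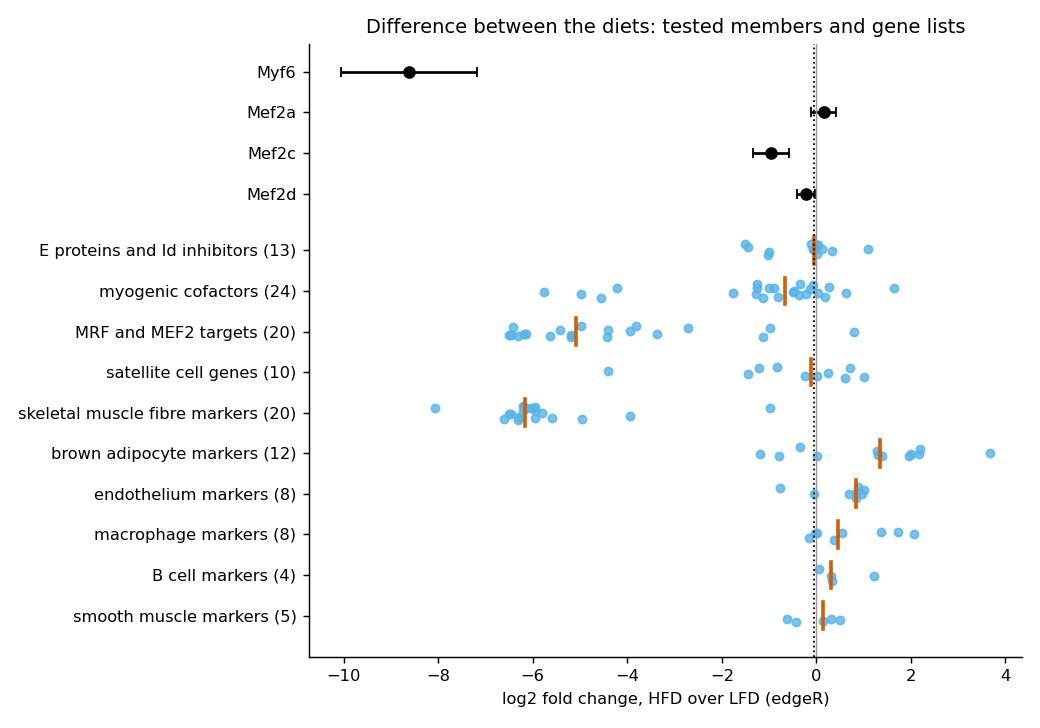
Log2 fold change, HFD over LFD (horizontal axis, edgeR), of the 4 members tested with their standard errors (black) and of each tested gene of 10 lists (blue, number of genes in brackets, median in orange), with the median of all genes tested as a dotted line. *Myf6* lay at -8.62 and the MEF2 genes between -0.95 and 0.15, while the muscle targets and fibre markers centred on -5.09 and -6.17.

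*Mef2c* had the largest difference among the MEF2 genes. It had 23.0, 68.8 and 32.2 TPM in LFD replicates 1 to 3 and 10.4, 23.7 and 22.2 TPM in HFD replicates 1 to 3. On this scale LFD replicate 1 lay within the HFD range. In CPM it had 61.5, 115 and 44.7 in LFD-fed and 30.1, 42.5 and 41.4 in HFD-fed mice, where the diets did not overlap but LFD replicate 3 lay close to the HFD-fed mice. The log2 fold change was -0.95 (standard error 0.38), with an edgeR adjusted p = 0.454. Without LFD replicate 2 it was -0.49 (edgeR adjusted p = 0.764).

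*Mef2c* is also expressed by endothelial cells and B cells. The sum of 8 endothelial markers ranged from 152 to 663 TPM under HFD and from 184 to 406 TPM under LFD. The sum of 5 B cell markers ranged from 2.29 to 5.61 TPM under HFD and from 0.70 to 4.75 TPM under LFD. Both sums overlapped between the diets. The log2 fold changes of the 8 endothelial markers ran from -0.76 (*Vwf*) to 1.00 (*Egfl7*) with a median of 0.84, which was 0.57 without HFD replicate 3. Those of the 4 B cell markers tested ran from 0.05 to 1.21 with a median of 0.31, which was 0.75 without LFD replicate 2, 0.48 without LFD replicate 3, 0.20 without LFD replicate 1 and 0.47 without HFD replicate 1. The other cell types checked also overlapped in their sums, which were 6232 to 13544 TPM under HFD and 3626 to 13200 TPM under LFD for 12 brown adipocyte markers, 1615 to 3412 and 465 to 3791 TPM for 8 macrophage markers, and 60.9 to 172 and 52.3 to 226 TPM for 6 smooth muscle markers. In log2 CPM, single markers did not all overlap. The brown adipocyte genes *Ucp1* and *Prdm16* were higher in all HFD-fed mice, with log2 fold changes of 3.67 and 1.298. So were the macrophage genes *Adgre1*, *Cd68* and *Fcgr1*, with 1.36, 1.72 and 2.06, and the B cell gene *Cd79b*, with 1.21. These were 2 of 12, 3 of 8 and 1 of 4 markers tested, where 6.72% of all genes tested were higher in all HFD-fed mice. Values of the brown adipocyte markers ran from -1.19 (*Adipoq*) to 3.67, with 3 of 12 negative. The negative ones were *Adipoq*, *Plin1* (-0.78) and *Fabp4* (-0.35), which like *Pparg* (0.02) are general adipocyte genes. The other markers of this list ran from 1.29 (*Cox8b*) to 3.67 (*Ucp1*). *Fabp4* alone had 2624 to 8136 TPM over the 6 mice, a large part of the sums given above. Values of the macrophage markers ran from -0.16 (*Mrc1*) to 2.06, with 2 of 8 negative. At an unadjusted p under 0.05 by edgeR, 2 of 12 brown adipocyte markers were higher, *Prdm16* and *Dio2* but not *Ucp1*. So were 3 of 8 macrophage and 2 of 8 endothelial markers, where 3.86% of all genes were. None of these markers was called. The median of the brown adipocyte markers was 1.34, and 2.33 without LFD replicate 1. That of the macrophage markers was 0.46, but 0.10 without LFD replicate 1, 0.18 without HFD replicate 3, 0.72 without HFD replicate 2 and 0.98 without LFD replicate 3. That of the 5 smooth muscle markers tested was 0.15, but it ran from -0.38 without LFD replicate 2 to 0.28 without LFD replicate 3, and was also negative without HFD replicate 2 (-0.26) and without HFD replicate 3 (-0.08), and close to 0 without HFD replicate 1 (0.002) and without LFD replicate 1 (0.039). The part of these cell types in the value of *Mef2c* was not tested.

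*Mef2a* was the most abundant of the 9 genes in TPM in 5 of the 6 mice. It had 25.1, 64.8 and 64.3 TPM in LFD replicates 1 to 3 and 26.9, 54.9 and 60.2 TPM in HFD replicates 1 to 3. The values followed the replicate number more than the diet. The log2 fold change was 0.15 (standard error 0.27, edgeR adjusted p = 0.918), but the mean TPM was lower in HFD-fed mice, with 47.3 ± 17.9 (SD, n = 3) against 51.4 ± 22.8 (SD, n = 3), so the sign depends on the scale. *Mef2d* had 14.4, 30.0 and 27.4 TPM in LFD replicates 1 to 3 and 12.3, 23.2 and 20.9 TPM in HFD replicates 1 to 3. Its log2 fold change was -0.23 (standard error 0.19, edgeR adjusted p = 0.784).

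The ratio of the MEF2 genes within a mouse does not depend on scaling between mice. *Mef2a* made up 54.2%, 53.9% and 58.2% of the summed TPM of the 3 genes in HFD replicates 1 to 3, and 40.2%, 39.6% and 51.9% in LFD replicates 1 to 3. *Mef2c* made up 21.02%, 23.3% and 21.5% in HFD replicates 1 to 3, and 36.8%, 42.0% and 26.0% in LFD replicates 1 to 3. The diets did not overlap in either share. The mean share differed, HFD minus LFD, by 11.6 percentage points for *Mef2a* and by -13.0 points for *Mef2c* (exact two-sided permutation p = 0.1 each, the smallest possible, and 0.15 after adjustment over the 3 genes). These shares add up to a whole, so they are not independent of each other. The share of *Mef2d* was 22.6% ± 2.26 (SD, n = 3) under HFD and 21.2% ± 2.47 (SD, n = 3) under LFD (exact two-sided permutation p = 0.6). The mouse with the smallest *Mef2c* share among the LFD-fed, replicate 3, also had the lowest fibre marker sum of that diet. Among the HFD-fed, replicate 3 had the lowest fibre marker sum but replicate 1 the smallest *Mef2c* share. A link between this share and muscle RNA was not tested.

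RSEM also gives for each gene a mean transcript length, weighted by how abundant each annotated transcript is in the sample, so it moves when the mixture of isoforms does. The files list 12 transcripts for *Mef2a*, 31 for *Mef2c* and 7 for *Mef2d*. The weighted length of *Mef2d* was 3046, 3096 and 3116 bases in LFD replicates 1 to 3 and 3024, 2792 and 2715 bases in HFD replicates 1 to 3. All HFD-fed mice had a shorter mean than all LFD-fed mice, with a difference, HFD minus LFD, of -242 bases (exact two-sided permutation p = 0.1, adjusted p = 0.3 over 3 genes), and HFD replicate 1 lay close to the LFD-fed mice. Of 10116 genes with a varying length and at least 10 counts in every mouse, 6.07% were shorter and 5.33% longer in all HFD-fed mice. The weighted lengths of *Mef2a* (3535 ± 77.7 bases under HFD and 3478 ± 170 under LFD, SD, n = 3 each) and *Mef2c* (2465 ± 102 and 2492 ± 87.5 bases) overlapped between the diets, with exact two-sided permutation p = 0.7 and 0.5.

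**Figure D5:**
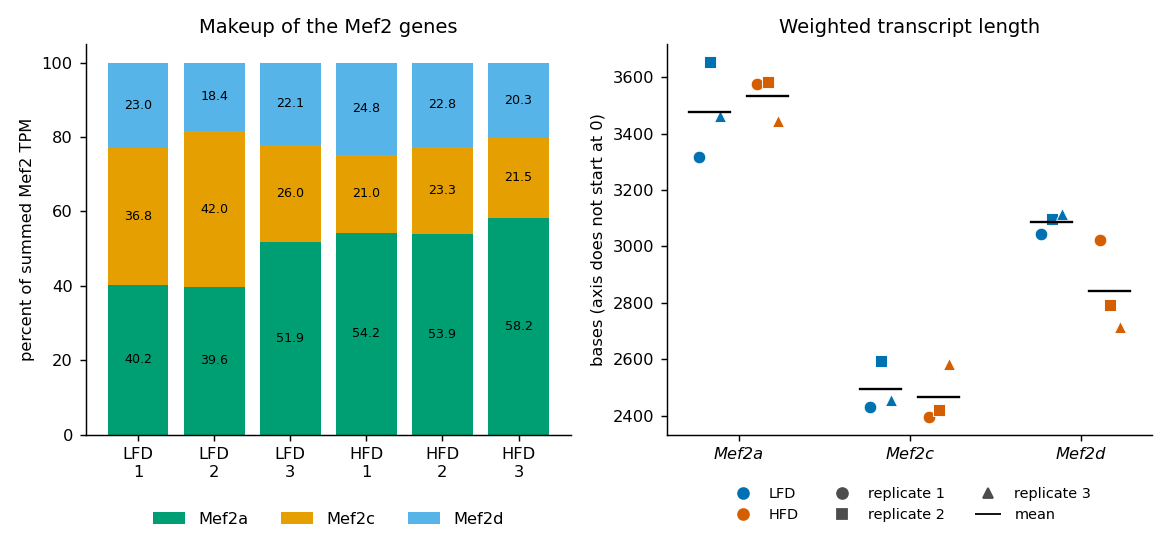
Left, share of *Mef2a*, *Mef2c* and *Mef2d* in their summed TPM (percent, stacked bars) in each mouse, where *Mef2c* takes 26.0% to 42.0% in LFD-fed and 21.02% to 23.3% in HFD-fed mice. Right, weighted transcript length in bases (axis not from 0) of the same genes by diet and replicate with the mean as a line, where the diets are apart for *Mef2d* only.

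Some reads of the MEF2 genes are uncertain. *Mef2a* (chromosome 7, 67231163 to 67372858) overlaps *Lysmd4* on the opposite strand, which had 123 to 183 reads, and 2 uncharacterised gene models on its own strand. *Mef2d* (chromosome 3, 88142372 to 88172086) overlaps the antisense gene 1700113A16Rik, which had 33 to 65 reads. The strand setting of the authors' counting is not given in the sources used here. *Mef2c* lies on chromosome 13 from 83504034 to 83667080, *Myod1* on chromosome 7 from 46376474 to 46379099 and *Myog* on chromosome 1 from 134289989 to 134292548, with no overlapping gene in the annotation.

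The genes with profiles most like a member were those with the smallest root-mean-square difference in centred log2 CPM over the 6 mice. For *Myf6* these were *Art1*, *Trim63* and *Trim72*, with differences of 0.483, 0.483 and 0.505. For *Mef2c* they were 1810059H22Rik, *Cep85l* and *Dcst1*, with 0.104 to 0.117. *Dmtf1*, *Cpsf6* and *Ago3* were nearest to *Mef2a* (0.035 to 0.051), and *Rcor3*, *Zfp825* and *Ash1l* to *Mef2d* (0.045 to 0.054). A gene with a small spread between mice has many near neighbours by this measure, so the differences are not comparable between members.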

How the data were processed

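BAT RNA of 3 HFD-fed and 3 LFD-fed mice was analysed from the authors' RSEM gene tables. Per the labels and the study's methods, the authors trimmed reads with Trimmomatic 0.36 and used RSEM 1.3.0 on GRCm38.p4 with Ensembl 84. The deposited expected counts were not normalized, and were rounded to whole numbers here. The deposited TPM values are scaled by the authors to transcript length and library total, and were used for levels. The FPKM values deposited by the authors were used only to recompute the Mef2 shares.

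The 9 members were matched by symbol. Members and gene lists were chosen with earlier results of these data known. Counts were fitted with edgeR 4.0.16 in R 4.3.3 (TMM, filterByExpr, quasi-likelihood test, Benjamini-Hochberg adjustment over 17668 genes), without a block as in the study. The 5 other members did not pass the filter on low counts and were given by counts, with exact intervals and a floor of 3 counts. CPM used a prior count of 2 on the log2 scale. Single values were compared by exact two-sided permutation tests. The code was tested on simulated data. In each list, the 4 tested genes with the largest absolute log2 fold change were named, with others the text needed, and the 3 nearest profiles of each tested member. The values of 1 gene that this rule names are not reported here. The paired fit used the replicate number, because the deviations of same-numbered mice from their diet means correlated (r = 0.498, 0.229 and 0.522 over genes). Nothing in the labels says that same-numbered mice shared a cage, litter or day. Pairs of mice of a diet differed by 71.7 to 558 in chi-square per degree of freedom, so no pair agreed within counting noise, and the labels alone make them separate samples. Alternatives were DESeq2 1.42.0, other size factors, filters and prior counts, robust fitting, a looser threshold, the block, leaving out mitochondrial genes or each mouse, log2(TPM + 1), effective length, FPKM and adding *Mef2b* to the Mef2 sum. Annotation was GENCODE M21 (GRCm38), and promoters were RefSeq's.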

Additional observations from a re-analysis of the deposited data

How the results depend on the processing

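With DESeq2 at default settings, 3 members and 412 genes were called, against 0 and 0 by edgeR. In log2(TPM + 1), 1 member did not overlap between the diets, against 3 in log2 CPM. The cause of these differences was not tested. With the replicate block (the paired fit), 0 members were called, and the block changed no member's call. Leaving out 1 mouse at a time, the log2 fold change of *Mef2a* ranged from -0.023 (without LFD replicate 1) to 0.33, and that of *Mef2c* from -1.21 to -0.49. The difference in weighted length ranged from -23.3 (without LFD replicate 1) to 146 bases for *Mef2a*, and from -85.5 to 22.9 bases for *Mef2c* (22.9 without LFD replicate 2 and 7.73 without HFD replicate 1). The log2 fold change of *Myf6* stayed between -10.42 and -7.15 over 12 alternatives, with adjusted p from 6.59e-07 (DESeq2) to 0.485 (edgeR without 1 mouse). A filter of 10 counts in every mouse left it out. Depth limits the other MRF and Pax genes, which had at most 1 read in each HFD-fed mouse.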
